A study of Mus musculus with 5 samples.

Results

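The expression of 33 genes of glycolysis and of the cellular response to low oxygen was analysed in single ovarian cells of mice. The genes were taken by symbol from a fixed list, and all 33 were found among the 31053 genes of each library. By role they are 4 transporters (Slc2a1 and Slc2a3 for glucose, Slc16a1 and Slc16a3 for lactate and pyruvate), 15 glycolytic enzymes, 2 kinases that set fructose 2,6-bisphosphate (Pfkfb3, Pfkfb4), 4 enzymes at the fate of pyruvate (Ldha, Ldhb, Pdk1, Pdk3) and 8 genes known as targets or regulators of the hypoxia response (Ndrg1, Ankrd37, Egln1, Egln3, Bnip3, Kdm3a, P4ha1, Higd1a). No measured value served as a rule of choice, but the list was set with earlier results of these data known. The study followed the first follicles of the mouse ovary through puberty, and the libraries came from whole ovaries of C57BL6/J females with no treatment at 2, 3, 4, 5 and 6 wk of age, 1 library per age. The ovaries were dissociated with trypsin, and how many animals each library holds is not given in the sources used here. Cells of the same class from the same library were summed, and the library was the unit.

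Glycolysis splits glucose into pyruvate in the cytosol. Pyruvate is then either reduced to lactate by lactate dehydrogenase or oxidised in the mitochondria by pyruvate dehydrogenase, which the Pdk kinases switch off. The lactate dehydrogenase subunits differ: the Ldha product is the form known from glycolytic tissue, and the Ldhb product is known from tissue that oxidises lactate. In low oxygen the hydroxylases encoded by Egln1 and Egln3 lose activity, the transcription factor HIF is no longer degraded, and HIF raises transcription of many of these genes. In the ovary, the oocyte is poor at using glucose and takes up pyruvate and lactate that granulosa cells make, and the granulosa layer of a follicle has no blood vessels of its own.

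Of the cells, 7779 to 11077 per library, 18076 were granulosa-like, 13642 stromal-like, 4170 smooth muscle-like, 1575 theca-like, 860 pericyte-like, 715 blood endothelial-like, 497 hematopoietic-like, 396 erythroid-like, 320 surface epithelial-like, 231 lymphatic endothelial-like and 91 rete ovarii-like, and 7590 stayed unnamed. Names rest on marker genes and mean that a cluster resembles the named type ("-like" is left off names within the granulosa and theca lineages), none of the 33 genes took part in the clustering, and every one of the 5 to 7 markers of each class was detected in it. The libraries held 93438618 to 144609431 UMIs (unique molecular identifiers, 1 per captured transcript). Levels are CPM, with each sum of a class and library brought to the same total of UMIs, and values for several ages are given in the order 2, 3, 4, 5 and 6 wk. The kit counts transcript ends, so a level does not grow with gene length, but capture may differ between genes, and levels are compared between classes for 1 gene. Free RNA can reach every droplet, and called doublets were kept. The granulosa marker list stood at 6121 to 8574 CPM in granulosa-like cells, at 344 to 503 in stromal-like cells and at 516 to 1343 in blood endothelial-like cells. Called doublets were 0.5 to 1.44% of stromal-like and 4.35 to 11.1% of blood endothelial-like cells by library. The parts of free RNA and doublets in these values were not tested. Any 2 libraries shared 18 to 35 cell barcodes, 0.216 to 0.399% of the smaller library.

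Erythroid-like cells, whose sums rest on 55 to 110 UMIs a library, had the lowest summed level of the 33 genes, 1087, 995, 1133, 173 and 1186 CPM. Their mitochondrial share was 68.1 to 77.9% over the libraries, against 2.95 to 4.27% in stromal-like cells. Mitochondrial UMIs count in the total behind a CPM, and their part in this rank was not tested. Rete ovarii-like cells, of the tubules at the hilum and with a sum at 2 and 3 wk only, had the highest values, 5419 and 6058 CPM. Among the other 9 classes the medians were highest in granulosa-like, surface epithelial-like and theca-like cells and lowest in stromal-like and lymphatic endothelial-like cells. In granulosa-like cells it was 5246, 5089, 5172, 4878 and 4575 CPM, and in theca-like cells 4198, 4579, 4693, 4098 and 3805 CPM. In stromal-like cells it was 2866, 3166, 3017, 2547 and 2329 CPM. Neither granulosa-like nor theca-like values overlapped the stromal-like ones. The log2 ratio to stromal-like cells was 0.85 ± 0.12 (SD, n = 5) for granulosa-like, 0.62 ± 0.08 for theca-like, 0.33 ± 0.12 for blood endothelial-like and 0.17 ± 0.09 for pericyte-like cells, above 0 in 5 of 5 libraries in each. An exact two-sided sign-flip permutation test over 5 libraries gave p = 0.0625 for each of these 4 ratios, the smallest it can give, so this test cannot reach 0.05 with 5 libraries. Surface epithelial-like cells, which cover the ovary, stood at 4383, 4074, 4907, 4565 and 4280.4 CPM. Blood endothelial-like cells stood at 3536, 3501, 3853, 3354 and 3195 CPM and pericyte-like cells at 3290.1, 3265, 3559, 2783 and 2766 CPM, with medians between the stromal-like and the theca-like medians.

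**Figure D1:**
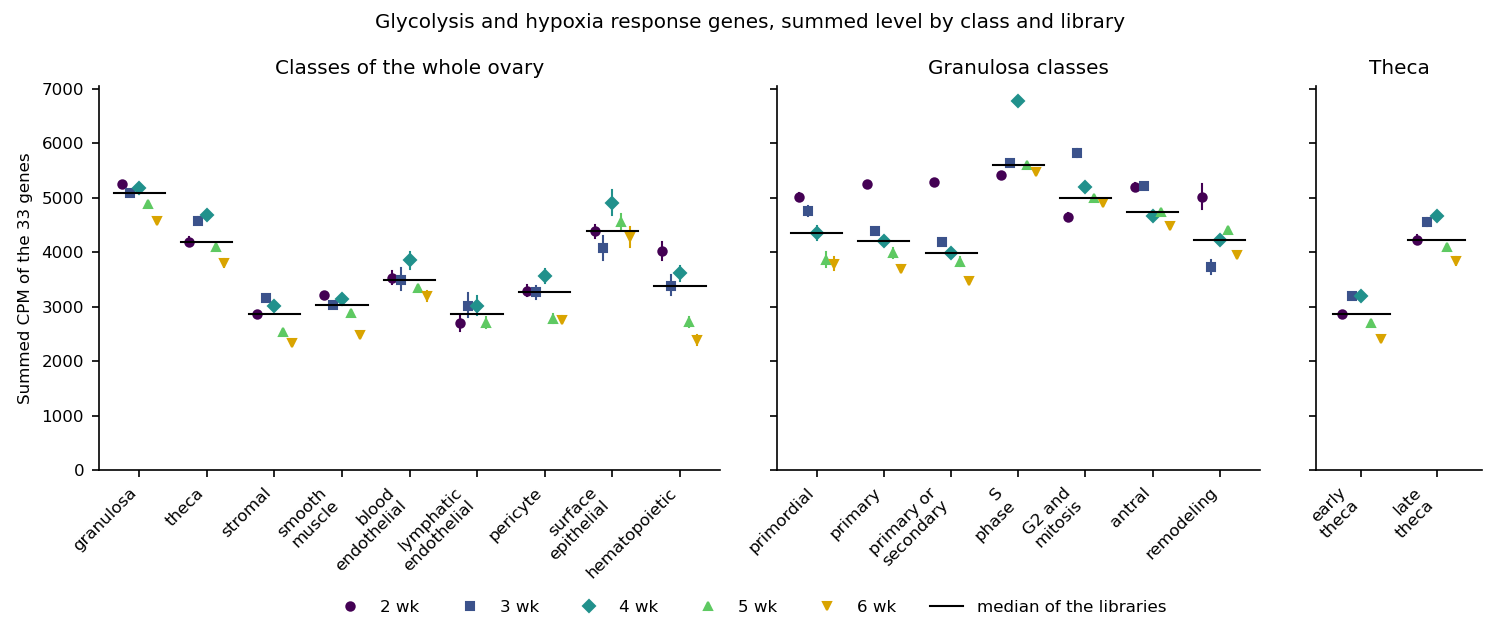
Summed CPM of the 33 genes (y axis) in each class of cells (x axis), 1 point per library coloured by age, vertical lines the exact 95% Poisson interval (counting error only) and horizontal bars the median of the libraries. Granulosa-like cells sit between 4575 and 5246 CPM and stromal-like cells between 2329 and 3166, and among granulosa classes the S phase class is highest, with a median of 5607.

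The groups of roles did not share this order. The 15 enzymes stood above stromal-like cells by 0.83 ± 0.14 (log2, SD, n = 5) in granulosa-like cells and by 0.81 ± 0.09 in theca-like cells. The 4 enzymes at the fate of pyruvate stood above by 1.09 ± 0.22 in granulosa-like cells and by 0.22 ± 0.17 in theca-like cells. For the 8 hypoxia response genes the ratio was 0.42 ± 0.06 in granulosa-like, -0.05 ± 0.18 in theca-like, 0.23 ± 0.16 in blood endothelial-like and 0.01 ± 0.13 in pericyte-like cells. In theca-like cells it was above 0 in 2 of 5 libraries (exact two-sided sign-flip permutation p = 0.625) and in pericyte-like cells also in 2 of 5 (p = 1 by the same exact test). The summed transporters stood above in 5 of 5 libraries in all 4 classes, with the largest mean ratio in pericyte-like cells, 0.92 ± 0.30. Such sums follow their most abundant members. The median over the members of the log2 ratio was -0.080 for transporters in blood endothelial-like cells and -0.011 for the hypoxia response genes in granulosa-like cells, both on the other side of 0 from the sums, so single genes are given next.

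Single genes were compared between classes of the same libraries with edgeR's quasi-likelihood test, adjusted over all genes by Benjamini-Hochberg, and fold changes are log2 with their standard error. The spread behind each p-value was estimated over all classes of a clustering together, not over the 2 compared classes alone. Over stromal-like cells, 18 of 32 tested genes of the list were higher and 8 lower in granulosa-like cells, where 31.1% of all 13494 genes tested were higher and 29.7% lower. In theca-like cells 14 were higher and 2 lower (all genes 20.9% and 22.2%). In blood endothelial-like cells 13 were higher and 8 lower (all genes 23.1% and 24.4%). In pericyte-like cells 7 were higher and 5 lower (all genes 17.5% and 15.4%). The median log2 fold change of the tested members was 0.35, 0.30, 0.11 and 0.05 in these 4 comparisons, against 0.04, 0.0018, -0.06 and -0.03 over all genes. Eno2, the neuronal enolase, had too few UMIs to be tested here. With RLE size factors the median over all genes moved by 0.17 in blood endothelial-like and 0.14 in pericyte-like cells, and the share of higher ones among all called genes went from 48.7 to 62.02% and from 53.14 to 67.79%, so the sign of a small change in these classes is relative to the scaling. In theca-like cells 4 members were lower with RLE size factors or without a filter on low counts, and 1 without library as a term. The comparisons share the stromal-like cells, so their values are not independent of each other.

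**Figure D2:**
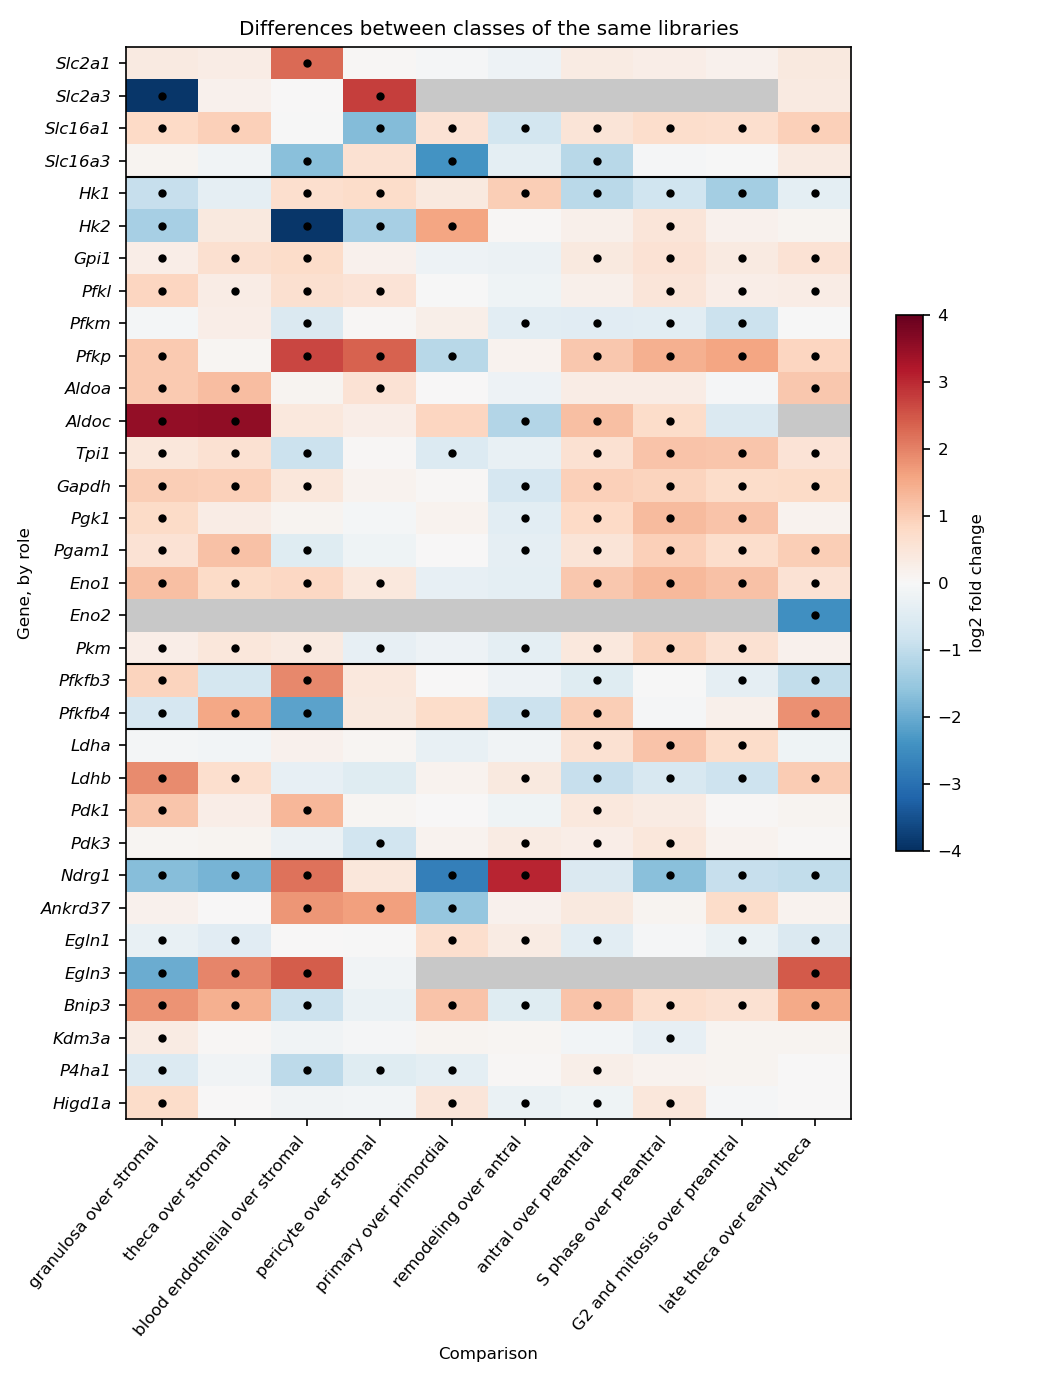
Log2 fold change (colour, cut at 4 in either direction) of each of the 33 genes (rows, separated by role) in 10 comparisons between classes of the same libraries (columns), with a black dot where the adjusted p was under 0.05 and grey where the gene was not tested. Most enzymes from Tpi1 to Pkm are higher in granulosa-like over stromal-like cells and in S phase over preantral granulosa, while Ldhb, Hk1, Hk2, Ndrg1 and Egln3 change sign between columns.

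The glucose transporters separated the vessel classes. Slc2a1, the transporter of the blood-tissue barriers, was at 81.9, 49.05, 43.7, 57.4 and 50.7 CPM in blood endothelial-like cells and at 12.5, 15.6, 10.8, 12.1 and 5.87 CPM in stromal-like cells. The values did not overlap, and Slc2a1 was higher in blood endothelial-like cells (2.26 ± 0.21, adjusted p = 2.57e-12). High Slc2a1 was not particular to vessels, and rete ovarii-like cells had the highest median of any class, 64.9 CPM. Slc2a3, a transporter with high affinity for glucose known from neurons, was at 94.1, 67.7, 39.2, 89.7 and 49.1 CPM in pericyte-like cells, the mural cells of small vessels, and at 8.85, 9.004, 8.67, 11.3 and 7.48 CPM in stromal-like cells. The values did not overlap (2.77 ± 0.26, adjusted p = 3.22e-12). Smooth muscle-like cells, whose markers pericyte-like cells also carry, had 5.83, 7.20, 5.37, 9.23 and 3.38 CPM. In granulosa-like cells Slc2a3 was at 0.801, 0.421, 0.743, 0.597 and 0.701 CPM, lower than in stromal-like cells in 5 of 5 libraries (-3.88 ± 0.27, adjusted p = 1.36e-16). Of the UMIs of both glucose transporters, Slc2a1 had 95.4 to 97.05% in granulosa-like cells, 78.5 to 97.4% in blood endothelial-like cells, 43.99 to 63.4% in stromal-like cells and 11.9 to 17.5% in pericyte-like cells (range over 5 libraries).

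Of the lactate transporters, Slc16a1 was at 47.1, 41.2, 33.6, 50.9 and 52.3 CPM in granulosa-like, 54.1, 48.6, 39.9, 47.1 and 34.5 CPM in theca-like and 31.4, 26.1, 18.4, 24.6 and 18.1 CPM in stromal-like cells. It was higher than in stromal-like cells in granulosa-like (0.80 ± 0.13, adjusted p = 7.78e-07) and theca-like cells (0.94 ± 0.14, adjusted p = 1.63e-07). It was lower in pericyte-like cells, at 10.4, 5.73, 3.36, 6.49 and 9.81 CPM (-1.72 ± 0.20, adjusted p = 1.05e-09). Surface epithelial-like cells had the highest Slc16a1 median of any class, 71.3 CPM. Slc16a3, the transporter known for lactate export from glycolytic cells, was lower in blood endothelial-like cells, at 2.18, 3.07, 3.36, 4.47 and 0.597 CPM against 11.05, 13.2, 11.2, 6.07 and 6.14 CPM in stromal-like cells (-1.68 ± 0.47, adjusted p = 0.00287). It was called in neither granulosa-like nor theca-like cells.

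The hexokinases, which trap glucose in the cell, went opposite ways in the vessel lining. Hk2, the form that insulin and HIF raise, was at 7.65, 21.5, 5.04, 4.47 and 2.39 CPM in blood endothelial-like cells and at 42.1, 87.4, 147, 109.5 and 31.5 CPM in stromal-like cells (-3.90 ± 0.33, adjusted p = 7.62e-14). The values did not overlap. It was also lower in granulosa-like (-1.31 ± 0.20, adjusted p = 2.61e-07) and pericyte-like cells (-1.32 ± 0.23, adjusted p = 1.1e-05), and at 78.6, 119, 152, 73.2 and 75.4 CPM in theca-like cells it was not called. Hk1, the widely expressed form, was higher in blood endothelial-like cells, at 49.2, 58.2, 47.1, 49.03 and 38.2 CPM against 24.1, 32.1, 33.5, 23.4 and 25.7 CPM (0.66 ± 0.18, adjusted p = 0.00209), and lower in granulosa-like cells (-0.93 ± 0.16, adjusted p = 1.64e-06). Hk1 had 73.1 to 94.1% of the UMIs of both hexokinases in blood endothelial-like and 49.1 to 73.6% in pericyte-like cells. Its share was 14.3 to 23.2% in theca-like cells and 25.3 to 44.8% in those of granulosa. In stromal-like cells the Hk2 level itself was highest at 4 wk and lowest at 6 wk.

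Phosphofructokinase commits sugar to glycolysis, and its platelet form Pfkp was higher in both vessel classes than in stromal-like cells. Pfkp was at 38.2, 64.4, 67.2, 65.96 and 52.5 CPM in blood endothelial-like, 40.7, 45.9, 52.7, 46.6 and 34.1 CPM in pericyte-like and 5.31, 6.16, 9.78, 11.5 and 7.18 CPM in stromal-like cells. Both vessel classes lay above every stromal-like value (blood endothelial-like 2.66 ± 0.25, adjusted p = 3.09e-12, pericyte-like 2.37 ± 0.25, adjusted p = 1.54e-10). Pfkp was also called higher in granulosa-like cells (1.04 ± 0.22, adjusted p = 5.8e-05), at 5.57, 13.1, 27.5, 26.1 and 23.5 CPM, where the 2 wk value lay within the stromal-like range. It had 31.8 to 50.6% of the phosphofructokinase UMIs in blood endothelial-like, 24.9 to 57.1% in smooth muscle-like and 8.93 to 20.2% in stromal-like cells, where the liver form Pfkl had 54.9 to 62.04%. Its share was also high, 43.9 to 69.2%, among hematopoietic-like cells, so a high share was not particular to vessels. Pfkm, the muscle form, had 13.3 to 24.6% in smooth muscle-like and 18.2 to 37.7% in theca-like cells.

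**Figure D3:**
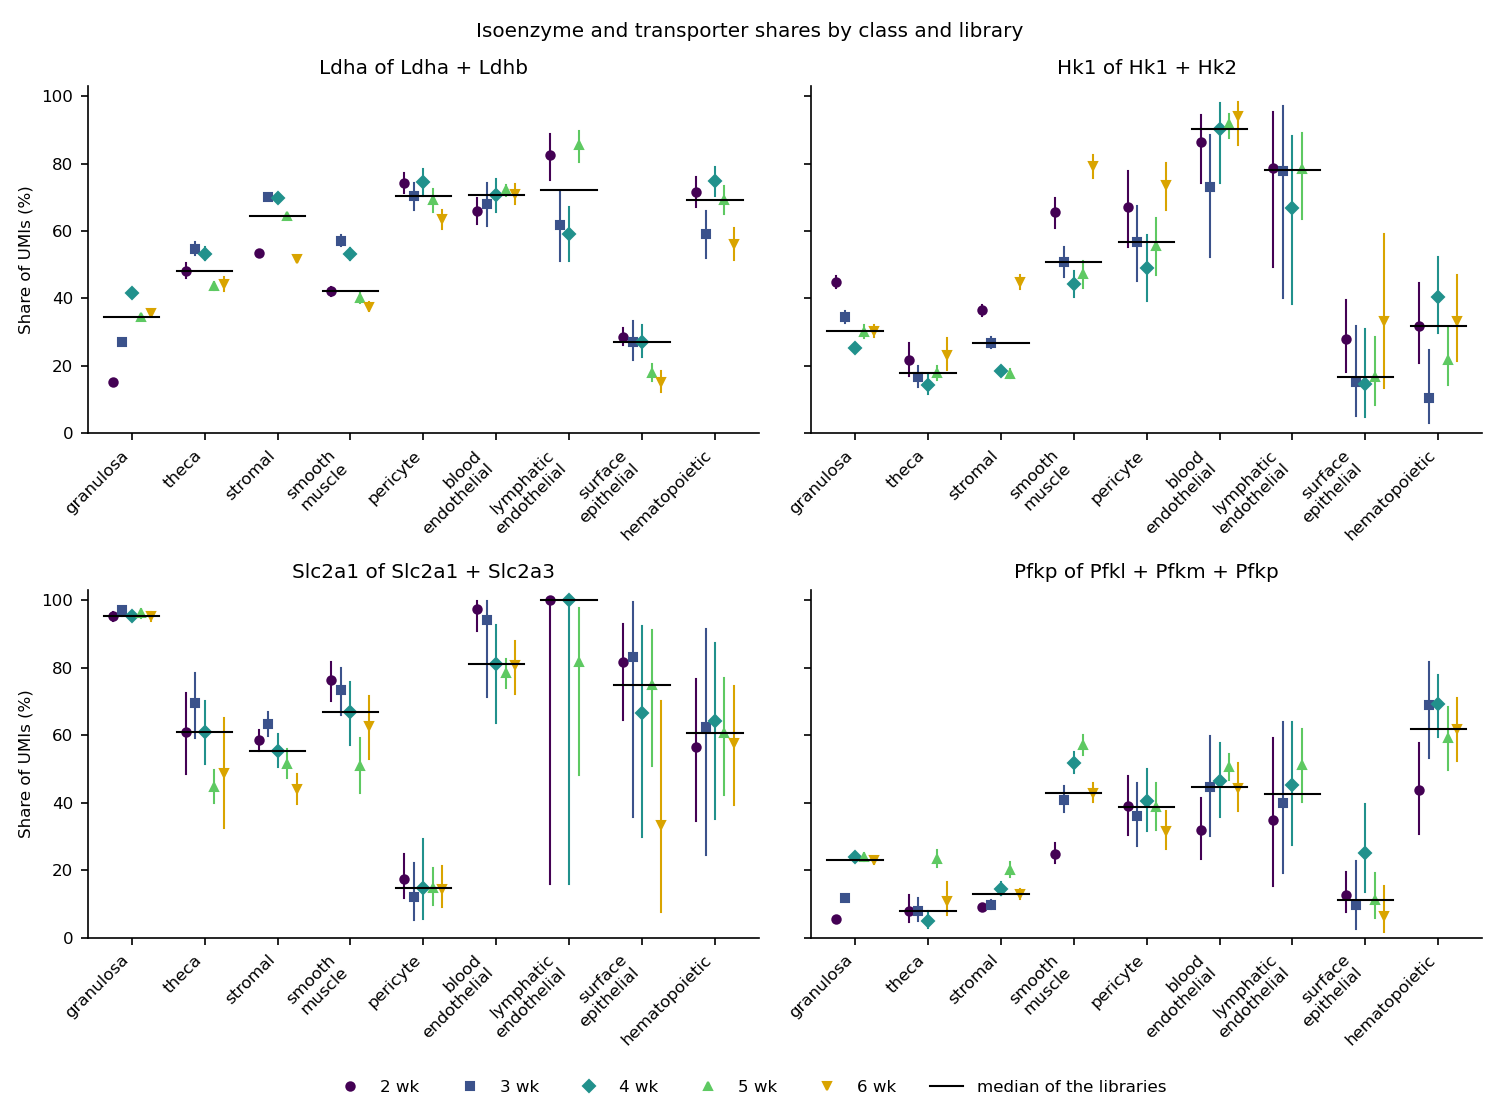
Share of UMIs (y axis, percent) that Ldha, Hk1, Slc2a1 and Pfkp hold among the UMIs of their alternative forms in each class (x axis), 1 point per library coloured by age, with exact 95% binomial intervals (counting error only) and the median as a bar. Slc2a1 holds at most 17.5% in pericyte-like cells and at least 95.4% in granulosa-like cells, and Ldha holds 15.1 to 41.5% in granulosa-like and 66.0 to 72.0% in blood endothelial-like cells.

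Aldolase, which cleaves the sugar, was higher in granulosa-like and theca-like than in stromal-like cells. High Aldoa was not particular to them, and rete ovarii-like cells had the highest median of any class, 618 CPM. Aldoa was at 504, 488, 484, 464 and 451 CPM in granulosa-like, 442, 505, 565, 535 and 428 CPM in theca-like and 208, 224, 214, 198 and 201 CPM in stromal-like cells. No granulosa-like or theca-like value overlapped the stromal-like values (granulosa-like 1.06 ± 0.10, adjusted p = 2.72e-12, theca-like 1.25 ± 0.10, adjusted p = 1.66e-13). Aldoc, the brain form, was called in the same 2 classes from few UMIs. It was at 3.73, 2.82, 4.58, 3.73 and 3.66 CPM in granulosa-like and 0.157, 0.107, 0.553, 0.689 and 0.217 CPM in stromal-like cells (3.53 ± 0.40, adjusted p = 4.83e-10), the latter from 46 UMIs in all. In theca-like cells it was at 0.349, 2.07, 8.02, 8.66 and 0.923 CPM (3.56 ± 0.44, adjusted p = 1.15e-08). Surface epithelial-like cells had a median of 28.9 CPM, and Aldoa held 92.1 to 98.5% of the aldolase UMIs there against 99.7 to 99.95% in stromal-like cells.

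The enzymes from triose phosphate to pyruvate were higher as a group in granulosa-like and theca-like cells. Tpi1, Gapdh, Pgk1, Pgam1, Eno1 and Pkm were all called higher in granulosa-like over stromal-like cells, and all but Pgk1 in theca-like cells. Gapdh, which yields the pathway's NADH, was at 1062, 1279, 1377, 1144 and 1129 CPM in granulosa-like, 1001, 1218, 1144, 1002 and 923 CPM in theca-like and 563, 679, 637, 484 and 410.1 CPM in stromal-like cells. The latter lay below every other value (0.99 ± 0.12, adjusted p = 5.04e-10 for granulosa-like, 0.95 ± 0.12, adjusted p = 3.89e-09 for theca-like). Eno1, the common enolase, had the largest of these 6 fold changes in granulosa-like cells, at 109, 131, 199, 155 and 159 CPM against 62.2, 62.7, 64.6, 52.7 and 54.3 CPM (1.19 ± 0.15, adjusted p = 3.72e-09). Pgam1, a phosphoglycerate mutase, had the largest in theca-like cells, at 394, 462, 469, 468 and 364 CPM against 203, 234, 208, 166 and 166 CPM (1.16 ± 0.12, adjusted p = 1.55e-10). In blood endothelial-like cells Tpi1 (-0.85 ± 0.12, adjusted p = 9.47e-08) and, except with RLE size factors, Pgam1 (-0.47 ± 0.13, adjusted p = 0.00238) were lower and Gapdh, Eno1 and Pkm higher than in stromal-like cells. The Pkm call in granulosa-like cells, 0.27 on the log2 scale, was lost with other size factors and without the 4 wk or the 5 wk library. Gapdh and Eno1 have near-identical copies elsewhere in the genome, so their counts are uncertain to the extent that reads were shared.

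The kinases of fructose 2,6-bisphosphate, the activator of phosphofructokinase, differed between theca-like and blood endothelial-like cells. Neither was called in pericyte-like over stromal-like cells, and Pfkfb3 was not called in theca-like cells. Pfkfb4 was at 26.9, 25.3, 31.8, 25.2 and 10.8 CPM in theca-like and 10.5, 10.2, 7.75, 9.39 and 3.86 CPM in stromal-like cells and did not overlap (1.55 ± 0.26, adjusted p = 2.57e-06). It was at 5.46, 0, 0, 1.56 and 2.39 CPM in blood endothelial-like cells, from 17 UMIs in all (-2.16 ± 0.48, adjusted p = 0.000199). Pfkfb3, known for driving glycolysis in sprouting endothelium, was at 15.3, 18.4, 31.9, 64.8 and 8.95 CPM in blood endothelial-like and 5.78, 8.36, 9.13, 5.99 and 6.99 CPM in stromal-like cells (1.91 ± 0.30, adjusted p = 5.94e-07). The ranges overlapped only through the 6 wk value of blood endothelial-like cells, and the 5 wk value was the highest of both classes. Pfkfb3 was also higher in granulosa-like cells, at 15.5, 20.5, 13.4, 12.4 and 11.5 CPM (0.88 ± 0.25, adjusted p = 0.00215).

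At the fate of pyruvate, granulosa-like cells had more Ldhb than stromal-like cells. Ldhb was at 1426, 863, 605, 780.4 and 657 CPM in granulosa-like cells and at 295, 182, 175, 180.2 and 226 CPM in stromal-like cells, without overlap (1.88 ± 0.21, adjusted p = 1.13e-10). The 2 wk library was the highest in both classes. High Ldhb was not particular to granulosa-like cells. In surface epithelial-like cells, where the 4, 5 and 6 wk values lay above the granulosa-like ones of the same libraries, it was at 672, 519, 710.3, 915 and 959.8 CPM. In rete ovarii-like cells it was at 966 and 1019 CPM at 2 and 3 wk. Ldha was at 253, 319.5, 429, 409 and 364 CPM in granulosa-like and 338, 428, 402, 326 and 240.3 CPM in stromal-like cells, which overlapped, and it was called in none of the 4 comparisons. Ldha held 15.1 to 41.5% of the lactate dehydrogenase UMIs in granulosa-like, 15.2 to 28.6% in surface epithelial-like, 43.6 to 54.7% in theca-like, 51.6 to 70.1% in stromal-like, 63.5 to 74.6% in pericyte-like and 65.99 to 72.03% in blood endothelial-like cells. Theca-like cells also had more Ldhb than stromal-like cells (0.68 ± 0.20, adjusted p = 0.00585). Pdk1, a HIF target that holds back the oxidation of pyruvate, was higher in blood endothelial-like cells, at 24.03, 12.3, 15.1, 25.1 and 12.5 CPM (1.34 ± 0.25, adjusted p = 1.94e-05), and in granulosa-like cells, at 12.5, 11.9, 19.4, 20.05 and 17.02 CPM (1.10 ± 0.21, adjusted p = 1.07e-05), against 8.58, 7.05, 6.69, 7.45 and 5.08 CPM in stromal-like cells. Pdk3 was lower in pericyte-like cells (-0.76 ± 0.20, adjusted p = 0.00184) and was called in none of the other 3.

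Of the 8 hypoxia response genes, 3 were higher and 4 lower in granulosa-like than in stromal-like cells, where 31.1% of all genes were higher and 29.7% lower. In theca-like cells 2 were higher and 2 lower (all genes 20.9% and 22.2%), in blood endothelial-like cells 3 and 2 (23.1% and 24.4%) and in pericyte-like cells 1 and 1 (17.5% and 15.4%). With 8 genes such counts lie near those shares, and nothing is read from them about the group. Bnip3, which marks mitochondria for removal, was at 37.95, 45.7, 57.2, 58.8 and 63.8 CPM in granulosa-like, 31.4, 28.2, 44.3, 54.9 and 27.4 CPM in theca-like and 17.9, 12.6, 12.2, 13.3 and 12.6 CPM in stromal-like cells. Both of the former classes lay above the stromal-like values (granulosa-like 1.79 ± 0.17, adjusted p = 1.22e-12, theca-like 1.42 ± 0.18, adjusted p = 5.78e-09), and blood endothelial-like cells were lower (-0.87 ± 0.25, adjusted p = 0.00403). Ndrg1, a stress response gene of differentiating cells, differed from stromal-like cells in the reverse direction in each of these classes. It was at 80.8, 85.8, 75.7, 133 and 68.7 CPM in blood endothelial-like, 14.7, 20.1, 21.4, 23.3 and 11.2 CPM in stromal-like, 3.13, 2.73, 9.59, 8.08 and 7.21 CPM in granulosa-like and 9.43, 3.62, 5.44, 4.62 and 3.38 CPM in theca-like cells. It was higher in blood endothelial-like (2.16 ± 0.30, adjusted p = 5.81e-08) and lower in granulosa-like (-1.72 ± 0.28, adjusted p = 9.83e-07) and theca-like cells (-1.86 ± 0.36, adjusted p = 2.84e-05). Its highest median among classes with at least 4 libraries was in lymphatic endothelial-like cells, 265, 325, 243 and 441 CPM at 2, 3, 4 and 5 wk.

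Egln3, an oxygen sensor that HIF itself raises, was most abundant in surface epithelial-like cells. Surface epithelial-like cells had 27.1, 26.8, 25.4, 20.2 and 28.9 CPM, blood endothelial-like cells 6.55, 3.07, 13.4, 2.14 and 1.19 CPM and stromal-like cells 1.61, 1.07, 0.5995, 0.301 and 0.435 CPM. The latter 2 ranges overlapped. It was called higher in blood endothelial-like cells from 28 UMIs (2.42 ± 0.57, adjusted p = 0.000533) and in theca-like cells from 67 UMIs (1.97 ± 0.47, adjusted p = 0.000622), and lower in granulosa-like cells (-1.995 ± 0.46, adjusted p = 0.00027). In theca-like cells it was at 10.5, 5.43, 1.04, 0.568 and 1.23 CPM, with the 2 highest values at 2 and 3 wk. Ankrd37, a HIF target of unclear function, was called higher in blood endothelial-like (1.77 ± 0.37, adjusted p = 9.01e-05) and pericyte-like cells (1.65 ± 0.37, adjusted p = 0.000387). Its values in blood endothelial-like cells were 14.2, 0, 8.41, 12.3 and 5.37 CPM, with no UMI at 3 wk. P4ha1, a collagen prolyl hydroxylase, was lower than in stromal-like cells in granulosa-like (-0.54 ± 0.11, adjusted p = 4.82e-05), blood endothelial-like (-1.03 ± 0.13, adjusted p = 9.83e-09) and pericyte-like cells (-0.48 ± 0.12, adjusted p = 0.00206). Higd1a, a mitochondrial protein of low oxygen, was higher in granulosa-like cells (0.74 ± 0.12, adjusted p = 8.27e-07), and Kdm3a, a histone demethylase, had a fold change of 0.34 there that other size factors or the fit without the 6 wk library did not keep as a call.

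The letters of the HIF binding motif were searched in the promoters of these genes because several of them are known HIF targets and yet differed in opposite directions between the same classes. A promoter was the window of 300 bases from 250 before to 50 after the start of the gene in RefSeq, build GRCm38.p6, and the letters searched were ACGTG and GCGTG on either strand, which overlap each other in CACGTG. Windows were found for 31 of the 33 genes, not for Ndrg1 and Slc2a3. Where a gene had several windows, only the one listed first was counted, so other starts of a gene are not covered. The letters stood in 25 of these 31 windows (80.65%), against 11836 of 27025 windows of all genes (43.80%). The windows were not matched for base composition or expression, and several members were listed as HIF targets. No enrichment is therefore read from this difference. They stood in 7 of 7 hypoxia response genes, 4 of 4 genes at the fate of pyruvate and 9 of 15 enzymes, and not in the windows of Aldoa, Eno2, Gpi1, Hk1, Pkm and Tpi1. The windows of Bnip3 and Egln3 (opposite signs in granulosa-like cells), Ldha (with the most matches, 7) and Pfkp (higher in vessel classes than in stromal-like cells) are shown 5′ to 3′ along the gene, with the matching letters in capitals. A match is a description of the letters and not a bound site.
Bnip3, chr7:138909457-138909756, minus strand: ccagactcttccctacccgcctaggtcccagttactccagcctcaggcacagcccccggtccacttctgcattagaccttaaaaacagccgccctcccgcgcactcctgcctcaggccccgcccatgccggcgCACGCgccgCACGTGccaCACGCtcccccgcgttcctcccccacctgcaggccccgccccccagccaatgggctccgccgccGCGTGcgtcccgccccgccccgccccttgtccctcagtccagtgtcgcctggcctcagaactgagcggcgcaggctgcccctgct
Egln3, chr12:54203825-54204124, minus strand: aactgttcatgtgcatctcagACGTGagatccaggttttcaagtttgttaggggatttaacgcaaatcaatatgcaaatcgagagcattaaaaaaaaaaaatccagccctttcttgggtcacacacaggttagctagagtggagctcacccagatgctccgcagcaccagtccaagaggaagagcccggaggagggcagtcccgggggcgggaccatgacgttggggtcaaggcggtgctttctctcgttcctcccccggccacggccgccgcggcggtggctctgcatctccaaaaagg
Ldha, chr7:46845554-46845853, plus strand: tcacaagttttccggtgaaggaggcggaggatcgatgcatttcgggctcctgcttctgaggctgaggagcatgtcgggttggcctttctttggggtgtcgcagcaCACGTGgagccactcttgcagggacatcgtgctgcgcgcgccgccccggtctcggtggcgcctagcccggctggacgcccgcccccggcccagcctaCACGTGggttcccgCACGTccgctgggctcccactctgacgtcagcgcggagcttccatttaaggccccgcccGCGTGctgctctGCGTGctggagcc
Pfkp, chr13:6648722-6649021, minus strand: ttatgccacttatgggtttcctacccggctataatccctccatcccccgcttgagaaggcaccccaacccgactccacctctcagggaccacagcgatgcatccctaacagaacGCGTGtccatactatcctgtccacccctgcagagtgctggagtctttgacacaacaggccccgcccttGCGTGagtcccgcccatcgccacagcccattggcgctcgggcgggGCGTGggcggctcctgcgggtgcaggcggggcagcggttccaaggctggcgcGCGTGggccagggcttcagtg

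Within the granulosa lineage, the first step of follicle growth did not shift the summed level in 1 direction, while single genes differed widely. Primordial granulosa (826 cells) stood at 5017, 4752, 4358, 3860.0 and 3790.3 CPM and primary granulosa (1818 cells) at 5260.5, 4387, 4199, 3991 and 3699 CPM, a log2 ratio of -0.02 ± 0.08 (SD, n = 5) with 2 of 5 libraries above 0 (exact two-sided sign-flip permutation p = 0.6875). Of 30 tested genes 5 were higher and 6 lower in primary granulosa, where 15.5% of all genes were higher and 17.0% lower. The lower genes were led by Ndrg1, Slc16a3 and Ankrd37. Ndrg1 was at 19.5, 15.3, 13.99, 29.01 and 11.5 CPM in primordial and 1.85, 1.36, 6.01, 6.16 and 0.950 CPM in primary granulosa (-2.73 ± 0.33, adjusted p = 1.17e-07). Slc16a3 was at 91.2, 44.1, 26.98, 71.9 and 16.4 CPM and 13.2, 7.97, 13.1, 4.62 and 6.33 CPM (-2.38 ± 0.34, adjusted p = 2.31e-06). Neither pair of ranges overlapped, and the primordial values were the higher ones. Ankrd37 was at 7.77, 4.31, 3.997, 3.78 and 4.81 CPM and 2.71, 0.509, 1.06, 1.03 and 3.48 CPM, from 52 and 41 UMIs (-1.56 ± 0.41, adjusted p = 0.0037).

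The balance of the hexokinases also differed. Hk2 was at 8.27, 11.5, 13.99, 13.9 and 13.5 CPM in primordial and 29.5, 34.9, 31.8, 35.4 and 28.5 CPM in primary granulosa, without overlap (1.57 ± 0.23, adjusted p = 2.66e-06), and Hk1 was not called. Hk1 held 53.3 to 74.8% of the hexokinase UMIs in primordial and 37.3 to 51.6% in primary granulosa. Slc16a1 held 17.4 to 61.4% of the lactate transporter UMIs in primordial and 65.7 to 88.5% in primary granulosa, and Slc16a1 itself was higher in primary granulosa (0.57 ± 0.15, adjusted p = 0.00324). Bnip3 was at 10.5, 19.2, 18.98, 11.4 and 21.2 CPM and 34.7, 33.1, 37.5, 30.3 and 30.4 CPM, also without overlap (1.15 ± 0.25, adjusted p = 0.000517), and Egln1, the main oxygen sensor, was higher too (0.67 ± 0.13, adjusted p = 0.000132). Ldha and Ldhb were not called, and Ldha held 13.99 to 22.5% and 11 to 18.7% of their UMIs. The stromal marker list was at 83.8 to 142 CPM in primordial and 28.7 to 47.997 CPM in primary granulosa, and the surface epithelial list at 34.6 to 61.9 and 44.1 to 80.2 CPM. The part of such RNA in these differences was not tested. Slc16a3 stood at 6.07 to 13.2 CPM in stromal-like cells themselves.

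Antral and dividing granulosa cells were next compared with preantral granulosa, that is the primordial cluster, the primary cluster and 1 cluster whose markers did not separate primary from secondary follicles, joined. This grouping was chosen after the clusters had been seen. Tpi1, Gapdh, Pgk1, Pgam1, Eno1 and Pkm, the enzymes from triose phosphate to pyruvate, were higher in all 3 comparisons, as was Ldha, and Ldhb and Hk1 were lower. In antral granulosa (2912 cells) 16 of 30 tested genes were higher and 7 lower (all genes 23.3% and 22.8%). In S phase granulosa (3204 cells) 16 were higher and 5 lower (all genes 28.5% and 28.2%). In granulosa in G2 and mitosis (1636 cells) 13 were higher and 6 lower (all genes 27.9% and 28.8%). The glycolytic enzymes gave 9, 11 and 9 of 14 tested higher and 2 lower in each, with median log2 fold changes of 0.47, 0.81 and 0.49 against 0.0018, -0.02 and -0.03 over all genes. The 3 comparisons share the preantral cells.

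Summed, the enzymes stood above preantral granulosa by 0.56 ± 0.18 (log2, SD, n = 5) in antral, 0.75 ± 0.36 in S phase and 0.60 ± 0.38 in G2 and mitosis, above 0 in 5 of 5, 5 of 5 and 4 of 5 libraries. The 2 wk library gave the lowest ratio in each, 0.31, 0.17 and -0.07. The later ages gave 0.46 to 0.74, 0.66 to 1.05 and 0.63 to 0.87. The part of follicle stage in the ratios of the dividing classes was not tested. The genes at the fate of pyruvate stood below, with log2 ratios of -0.58 ± 0.13, -0.16 ± 0.09 and -0.41 ± 0.07, in 5 of 5 libraries each. That sum follows Ldhb, its most abundant member. The median over the 4 genes of the log2 ratio was positive in all 3 comparisons, at 0.18, 0.35 and 0.053.

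Eno1 was at 91.7, 68.4, 65.03, 53.4 and 56.1 CPM in primary, 117, 153, 292, 189 and 211 CPM in S phase and 133, 167, 169, 161 and 159 CPM in antral granulosa. The S phase and antral values lay above all those of primary granulosa (against preantral granulosa 1.28 ± 0.17, adjusted p = 1.67e-06 in S phase and 1.07 ± 0.17, adjusted p = 3.07e-05 in antral granulosa). Gapdh was higher in antral granulosa (0.94 ± 0.12, adjusted p = 1.5e-06), and Pgk1 (1.27 ± 0.12, adjusted p = 7.98e-09) and Tpi1 (1.14 ± 0.11, adjusted p = 1.4e-08) had fold changes above 1 in S phase and in G2 and mitosis alike (1.13 and 1.09). Pfkp was at 4.81, 5.60, 8.13, 8.21 and 4.12 CPM in primary, 5.81, 18.02, 37.05, 29.3 and 26.2 CPM in S phase and 6.95, 10.2, 24.8, 24.5 and 21.8 CPM in antral granulosa, with the lowest value at 2 wk in both of the latter. It was higher than in preantral granulosa in all 3 classes (antral 1.09 ± 0.16, adjusted p = 1.22e-05, S phase 1.42 ± 0.15, adjusted p = 6.11e-08, G2 and mitosis 1.59 ± 0.16, adjusted p = 2.26e-08). Pfkm, the muscle form, was lower in G2 and mitosis (-0.85 ± 0.11, adjusted p = 4.56e-07).

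Hk1 was at 31.5, 32.7, 31.5, 21.04 and 24.1 CPM in primary, 18.9, 7.99, 7.23, 4.78 and 6.78 CPM in G2 and mitosis and 13.3, 10.8, 7.42, 9.22 and 9.08 CPM in antral granulosa. The primary values lay above all of the others, and Hk1 was lower than in preantral granulosa in antral granulosa (-1.07 ± 0.17, adjusted p = 3.34e-05) and in G2 and mitosis (-1.36 ± 0.18, adjusted p = 1.78e-06). Ldha and Ldhb went opposite ways. Ldhb was at 1727, 1312, 1039, 1335 and 1294 CPM in primary, 1307, 745, 521, 639 and 594 CPM in S phase and 857, 559, 522, 547 and 483 CPM in antral granulosa (-0.91 ± 0.09, adjusted p = 6.61e-08 in antral, -0.63 ± 0.09, adjusted p = 4.42e-06 in S phase). Ldha was at 219, 195, 239, 224 and 159.9 CPM, 317, 412, 639.6, 562 and 506 CPM and 238, 334, 379.5, 380.0 and 309.8 CPM in the same classes (0.62 ± 0.14, adjusted p = 0.00127 in antral, 1.14 ± 0.14, adjusted p = 7.13e-07 in S phase). The share of Ldha was 11 to 18.7% in primary, 19.5 to 55.1% in S phase and 21.7 to 42.1% in antral granulosa, and the 2 wk library gave the lowest share in the latter 2 classes. The dividing classes also had more UMIs per cell, medians of 17887 to 25902 in S phase against 8029 to 15029 in primary granulosa, and the part of depth in these differences was not tested. The Ldhb call in S phase and the Pfkp call in antral granulosa were lost without library as a term.

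Bnip3 was at 83.2, 64.3, 55.5, 77.01 and 81.5 CPM in antral granulosa, above every primordial and primary value (1.13 ± 0.16, adjusted p = 4.8e-06 over preantral granulosa). Aldoc was higher in antral granulosa as well (1.20 ± 0.32, adjusted p = 0.00357). Ndrg1 was lower in S phase (-1.67 ± 0.30, adjusted p = 5.83e-05). Slc16a3 was called lower in antral granulosa (-1.10), a call that was lost without the 2 wk library, and Pfkfb4 was called higher (0.98), a call that was lost without the 2 wk or the 6 wk library. Pfkfb4 in antral granulosa was at 33.1, 4.97, 1.64, 9.22 and 8.86 CPM, far higher at 2 wk than at the other ages. The antral class joined 2 clusters that differed in these genes: the estrogenic cluster (870 cells), which carries markers of estrogen synthesis, summed to a median of 5843 CPM, and the Vpreb3-positive cluster (2042 cells) to a median of 4221 CPM. Gapdh was at 1825, 2808, 2487, 1873 and 1786 CPM in the former and 1341, 1126, 1187, 1133 and 972 CPM in the latter, and Aldoa at 728, 907, 737, 683 and 669.6 and 497, 358, 371, 442 and 352 CPM. These clusters were not compared by a test.

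**Figure D4:**
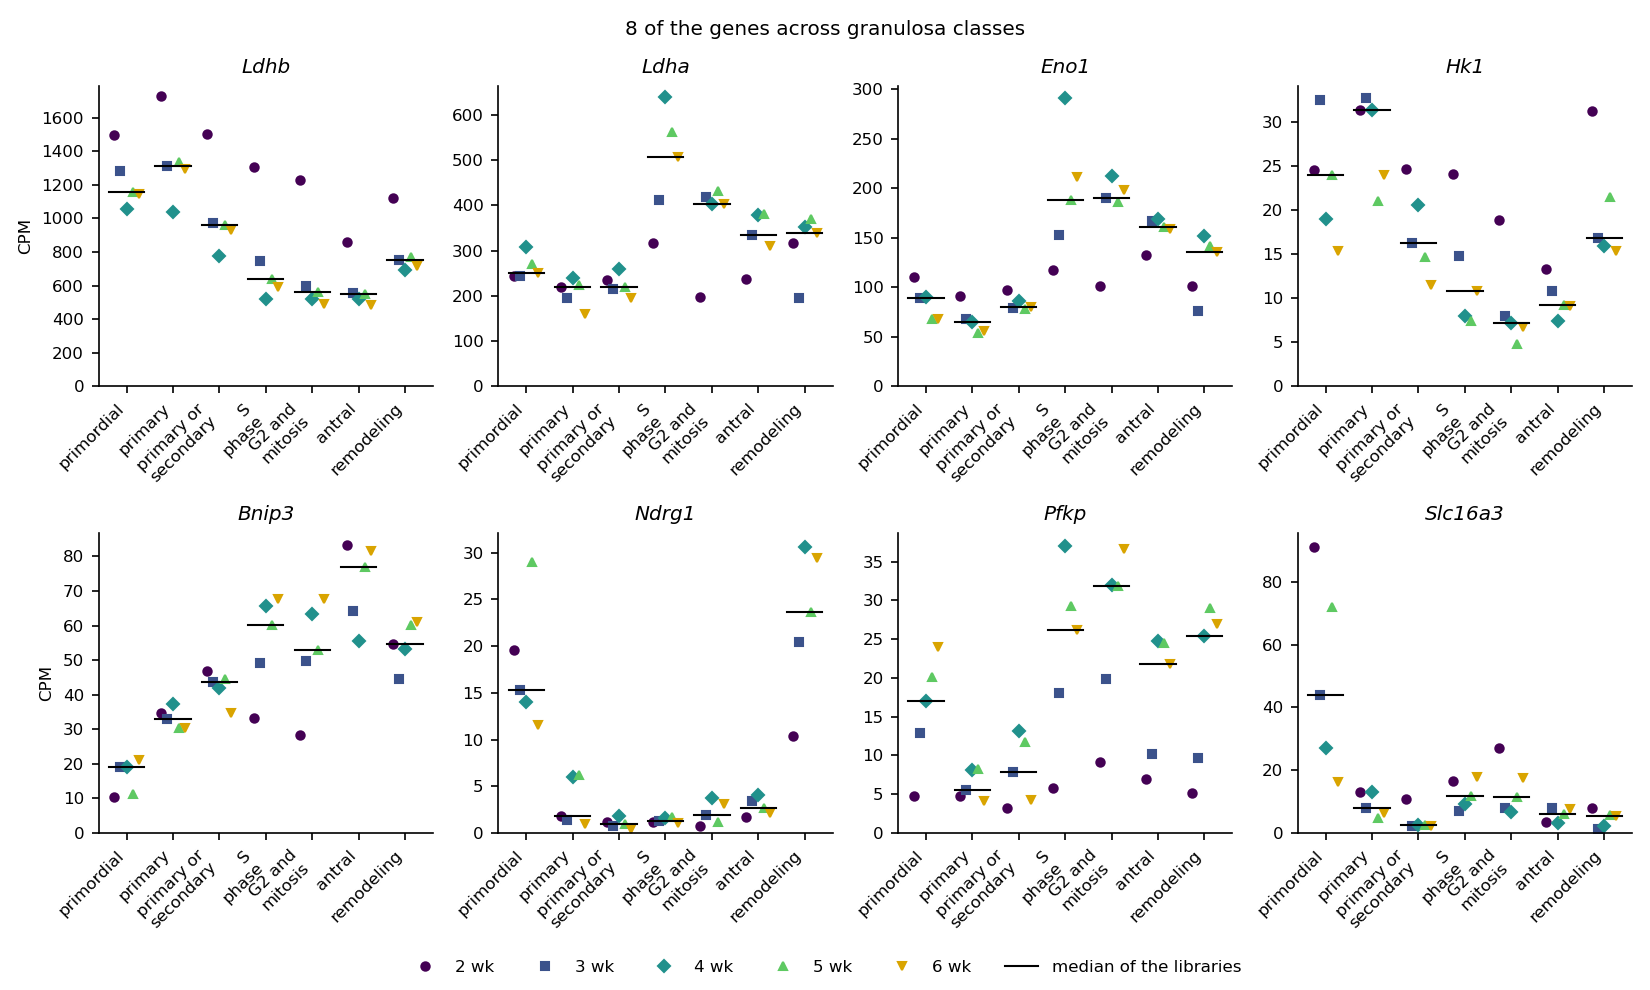
CPM (y axes, each from 0) of 8 of the genes in 7 granulosa classes (x axes), 1 point per library coloured by age and the median as a bar. Ldhb has a median of 1312 CPM in primary and 547 CPM in antral granulosa, Bnip3 has medians of 19.0, 33.1 and 77.0 CPM in primordial, primary and antral granulosa, and Ndrg1 is high in the primordial and the remodeling class.

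The study saw indications that its remodeling clusters came from remodeled follicles of the first wave. Remodeling granulosa was named here by the Agt and the Lox marker lists. Summed over the 33 genes it was below antral granulosa in 5 of 5 libraries, at 5021, 3733, 4234, 4409.7 and 3948 CPM in 3063 cells against 5199, 5214, 4657, 4743 and 4478 CPM, a log2 ratio of -0.19 ± 0.17 (SD, n = 5). By library this ratio was -0.05, -0.48, -0.14, -0.11 and -0.18, furthest from 0 at 3 wk. The antral class joined the estrogenic and the Vpreb3-positive cluster. The latter had the lower summed median, which lay near the remodeling median. The part of this mix in the differences from remodeling granulosa was not tested. The ratio was -0.37 ± 0.20 for the enzymes and 0.27 ± 0.13 for the genes at the fate of pyruvate, below 0 and above 0 in 5 of 5 libraries. Of 30 tested genes 5 were higher and 10 lower (all genes 18.2% and 20.1%). Without the 3 wk library 5 were lower, and without the 6 wk library 4. Without library as a term 2 were higher and 3 lower.

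Ndrg1 was at 10.4, 20.5, 30.6, 23.7 and 29.4 CPM in remodeling and 1.69, 3.46, 4.06, 2.71 and 2.16 CPM in antral granulosa, without overlap, the largest fold change of the list in this comparison (3.05 ± 0.25, adjusted p = 1.24e-10). Its median was 47.7 CPM in the cluster of this class marked by Lox (3 libraries) and 18.2 CPM in that marked by Agt. Hk1 was higher as well, at 31.3, 16.8, 15.9996, 21.5 and 15.3 CPM against 13.3, 10.8, 7.42, 9.22 and 9.08 CPM (0.99 ± 0.19, adjusted p = 0.00011). Gapdh was lower, at 1111, 881, 1001, 944 and 837 CPM against 1494, 1641, 1401, 1334 and 1337 CPM (-0.68 ± 0.12, adjusted p = 5.98e-05). Neither range overlapped that of antral granulosa. Slc16a1 was lower, at 36.5, 24.1, 18.4, 33.8 and 41.5 CPM against 57.1, 45.5, 29.7, 60.3 and 51.1 CPM (-0.74 ± 0.11, adjusted p = 5.15e-06), in 5 of 5 libraries though the ranges overlapped. Ldhb was higher (0.38 ± 0.10, adjusted p = 0.00267), a call that was lost without library as a term, and Ldha, at 196 to 369.6 CPM against 238 to 380.0 CPM, was not called. Bnip3 (-0.48) and Pfkm (-0.43) were lower by calls that were lost without single libraries, for Bnip3 the 3, 5 or 6 wk and for Pfkm the 4 or 6 wk library. The 2 wk library holds only 39 remodeling cells, and the 3 wk sum is small as well. Hk1 in remodeling granulosa rests on 12 UMIs at 2 wk and 14 at 3 wk, against 259 at 4 wk. The smooth muscle marker list stood at 49.6 to 494 CPM in remodeling and 34.8 to 85.2 CPM in antral granulosa, and its part in the difference was not tested. Acta2 is on this list and also among the markers that name the cluster marked by Agt. Smooth muscle-like cells themselves had Ndrg1 at 11.8 to 40.1 CPM.

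Theca cells mature around the growing follicle and make androgen, and many of these genes were higher in late theca. The study counts interstitial gland cells, also steroid-producing, together with theca cells. Late theca here may hold both, and they were not told apart. Late theca (1498 cells, with the enzymes of steroid synthesis) summed to 4228, 4554, 4671, 4091 and 3838 CPM and early theca (2109 cells) to 2875, 3205, 3189.9, 2700.0 and 2418 CPM, without overlap, a log2 ratio of 0.58 ± 0.06 (SD, n = 5) in 5 of 5 libraries (exact two-sided sign-flip permutation p = 0.0625, the smallest this test can give). Of 32 tested genes 13 were higher and 5 lower, where 22.6% of all genes were higher and 22.8% lower. Without library as a term 3 were lower. Aldoa was at 455, 500.4, 569, 538 and 441 CPM in late and 228, 239.8, 238, 232 and 209.7 CPM in early theca (1.08 ± 0.08, adjusted p = 3.07e-13), and Pgam1 at 399, 463, 475, 469 and 367 CPM and 211, 249.6, 230.2, 190.4 and 187 CPM (0.996 ± 0.09, adjusted p = 7.72e-11). Neither pair overlapped.

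Pfkfb4 was at 28.5, 26.2, 33.9, 25.9 and 11.1 CPM in late and 9.90, 7.83, 6.03, 5.80 and 3.56 CPM in early theca, also without overlap (1.84 ± 0.16, adjusted p = 2.43e-11), while Pfkfb3 was lower (-0.98 ± 0.23, adjusted p = 0.000803). Bnip3 was at 32.97, 29.002, 44.5, 54.04 and 26.7 CPM and 18.3, 13.8, 11.2, 12.8 and 9.49 CPM (1.51 ± 0.16, adjusted p = 9.84e-10). Ldhb was higher (1.002 ± 0.10, adjusted p = 3.67e-10) and Ldha was not called, and the share of Ldha was 43.6 to 56.97% in late and 61.9 to 78.1% in early theca. Egln3 was higher (2.45 ± 0.51, adjusted p = 0.000145), at 12.2, 5.97, 1.14, 0.601 and 1.39 CPM against 1.57, 0.833, 0, 0.232 and 0.264 CPM, from 67 and 21 UMIs. Eno2 was lower (-2.45 ± 0.49, adjusted p = 0.000108), from 8 UMIs in late and 50 in early theca. Ndrg1 was lower in late theca by a call that was lost without the 3, 4 or 5 wk library. At 5 wk late theca also held more RNA of other cells than at the other ages: the granulosa marker list ranged over libraries from 221 to 925 CPM with the highest value at 5 wk, and the erythroid list from 0 to 549 CPM likewise. Their part in the 5 wk values was not tested.

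The ages were compared at 5 over 2 wk to follow these genes through puberty. With 1 library per age there is no test. A gene was called when the ratio of CPM passed 1.5-fold with at least 200 UMIs over both sums, intervals are exact 95% conditional intervals for counting error only, and the spread between mice is not measured. Matrices of 2, 3 and 4 wk were made with Cell Ranger 3.1.0 and those of 5 and 6 wk with 6.0.1, so the software version and the age cannot be told apart between 2 and 5 wk. Of 30 tested genes of the list, 3 were called higher and 2 lower at 5 wk in stromal-like cells, where 6.24% and 6.84% of all tested genes were. In theca-like cells 3 of 26 were higher and 3 lower (all genes 15.3% and 14.5%), and in blood endothelial-like cells 3 of 19 higher and 0 lower (8.62% and 7.99%). In antral granulosa 3 of 24 were higher and 3 lower (7.34% and 9.33%), and in remodeling granulosa 4 of 23 higher and 0 lower (17.9% and 12.9%). The median ratios of the members, 0.871, 0.935, 0.938, 0.943 and 1.03 in the same order, lay near those of all genes, 0.946, 0.963, 0.957, 0.960 and 1.002.

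Pfkp was past 1.5-fold higher at 5 wk in all 5 classes, but the call in theca-like cells was lost once cells under 1000 detected genes or with 10% or more mitochondrial UMIs were dropped, with 0 members higher there. In antral granulosa it was at 6.95, 10.2, 24.8, 24.5 and 21.8 CPM (3.53-fold, interval 2.42 to 5.28), in stromal-like cells at 5.31, 6.16, 9.78, 11.5 and 7.18 CPM (2.17-fold, interval 1.81 to 2.59) and in blood endothelial-like cells at 38.2, 64.4, 67.2, 65.96 and 52.5 CPM (1.73-fold, interval 1.22 to 2.52). In theca-like cells the 5 wk value stood alone, at 5.93, 5.69, 4.14, 18.2 and 5.84 CPM (3.06-fold, interval 1.88 to 5.34), and 6 over 2 wk had too few UMIs to be called. At 6 over 2 wk the ratio was 3.14-fold, interval 2.18 to 4.64, in antral granulosa, and 1.35-fold, interval 1.13 to 1.62, in stromal-like cells. In remodeling granulosa the 5 over 2 wk ratio rests on 2 UMIs at 2 wk (5.57-fold, interval 1.53 to 46.2).

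In antral granulosa the other calls were Pdk1 (2.04-fold, interval 1.49 to 2.83) and Ldha (1.60-fold, interval 1.49 to 1.71) higher at 5 wk, and Ldhb (0.638-fold, interval 0.611 to 0.667), Pfkm (0.433-fold, interval 0.330 to 0.568) and Pfkfb4 (0.279-fold, interval 0.206 to 0.373) lower. The study's whole-mount counts found no antral follicle at 2 wk, although it scored granulosa clusters of that age as antral. The antral class joins the estrogenic and the Vpreb3-positive cluster, and the part of their mix in its 5 over 2 wk ratios was not tested. Ldhb was highest at 2 wk in all 7 granulosa classes. Of the genes that were not called, the highest ratios in antral granulosa were those of Eno1 (1.21-fold, interval 1.10 to 1.34) and P4ha1 (1.17-fold, interval 0.998 to 1.37) and the lowest those of Higd1a (0.694-fold, interval 0.634 to 0.761) and Pdk3 (0.821-fold, interval 0.649 to 1.04). Ldhb was lower in stromal-like cells as well (0.611-fold, interval 0.590 to 0.632). In remodeling granulosa Hk2 (2.90-fold, interval 1.23 to 8.98), Pdk1 (3.88-fold, interval 1.06 to 32.2) and Ndrg1 (2.27-fold, interval 0.877 to 8.40) were past 1.5-fold higher, from 5, 2 and 4 UMIs at 2 wk. The 39 remodeling cells of 2 wk were all of the cluster marked by Agt, whereas those of 5 wk joined 535 of that cluster and 211 of the cluster marked by Lox, in which Ndrg1 was higher. The part of this makeup in the 5 over 2 wk ratios was not tested.

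In theca-like cells Bnip3 (1.75-fold, interval 1.40 to 2.20) and Slc2a3 (1.70-fold, interval 1.14 to 2.64) were past 1.5-fold higher at 5 wk, and Pkm (0.661-fold, interval 0.617 to 0.709), Pfkm (0.508-fold, interval 0.390 to 0.667) and Egln1 (0.487-fold, interval 0.402 to 0.593) lower. Of the genes that were not called, the lowest ratios were those of Ldha (0.681-fold, interval 0.634 to 0.733) and Pdk3 (0.718-fold, interval 0.546 to 0.954) and the highest those of Eno1 (1.43-fold, interval 1.26 to 1.63) and Higd1a (1.29-fold, interval 1.13 to 1.47). With a stricter cell filter (1000 genes or more, mitochondrial share below 10%), 0 members were called higher and 1 lower in theca-like cells, and at 6 over 2 wk also 0 and 1. In stromal-like cells Hk2 was at 42.1, 87.4, 147, 109.5 and 31.5 CPM, higher at 5 than at 2 wk (2.60-fold, interval 2.45 to 2.77) and not called at 6 over 2 wk (0.750-fold, interval 0.696 to 0.807). Slc16a3 was lower (0.550-fold, interval 0.453 to 0.664) and Ndrg1 higher (1.58-fold, interval 1.41 to 1.78). In blood endothelial-like cells Pfkfb3 was at 15.3, 18.4, 31.9, 64.8 and 8.95 CPM (4.24-fold, interval 2.49 to 7.83, from 14 UMIs at 2 wk), and Ndrg1 was higher (1.65-fold, interval 1.30 to 2.12).

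**Figure D5:**
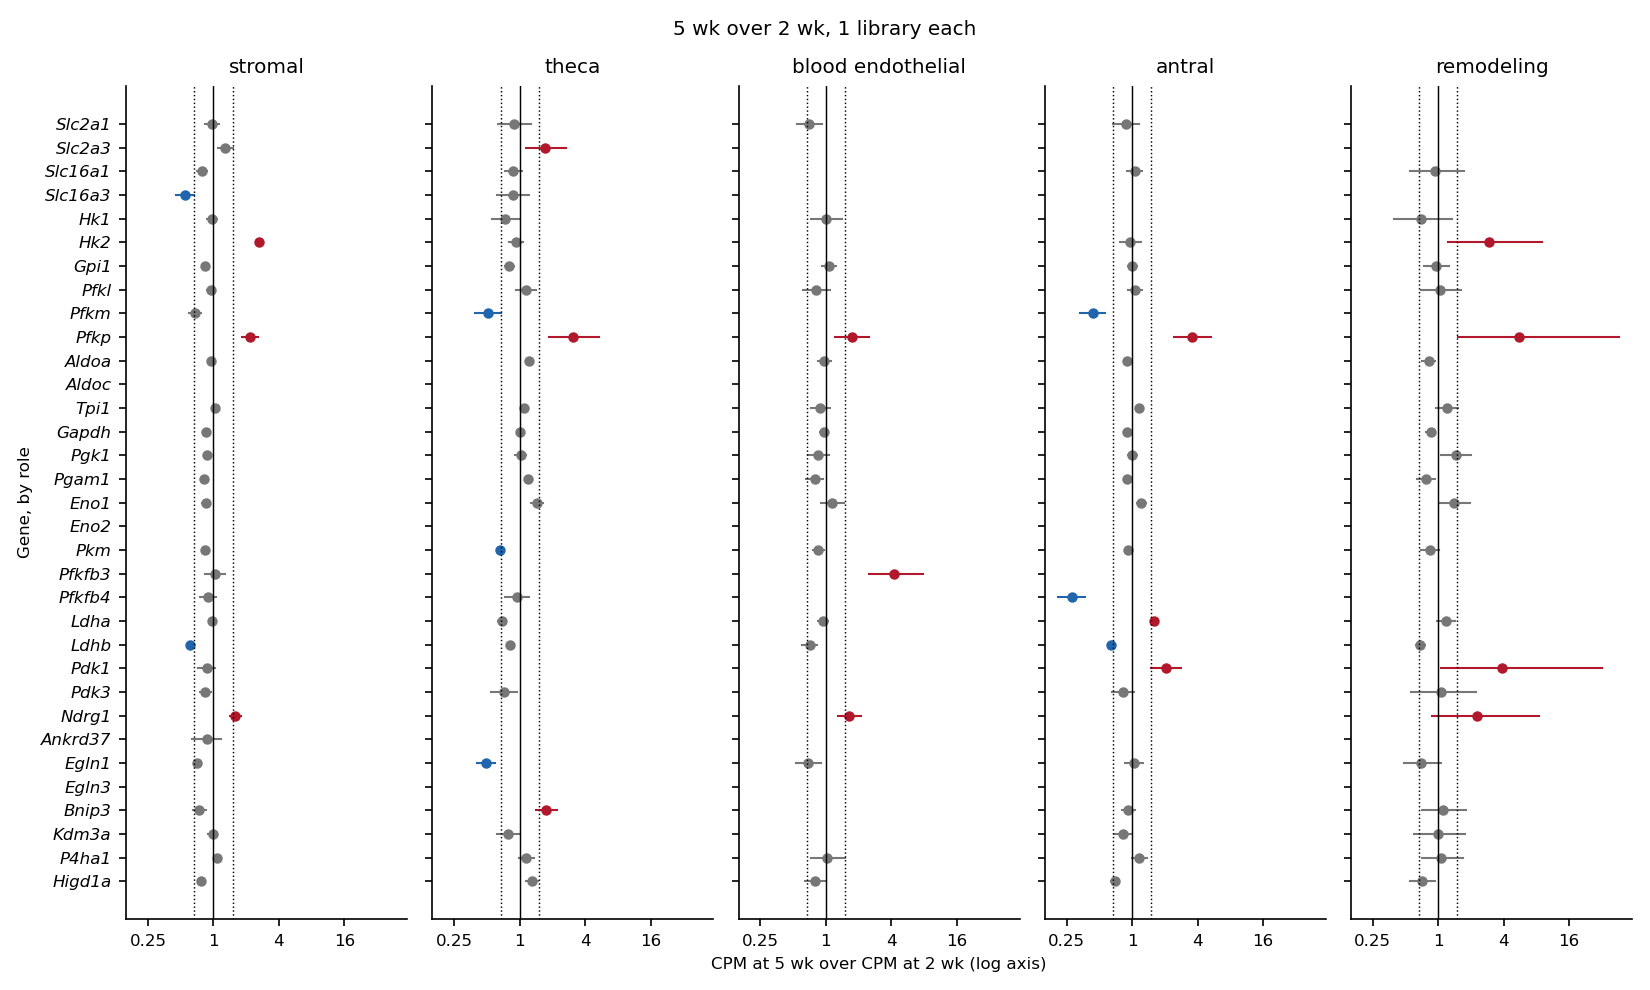
Ratio of CPM at 5 wk over 2 wk (x axes, log scale) of each tested gene (rows) in 5 classes (panels), with exact 95% intervals for counting error only, red and blue where past 1.5-fold (dotted lines) higher or lower, 1 library per age. Pfkp is red in all 5 panels, and most other genes lie between the dotted lines.

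Other genes of the same pathways were counted from lists of 8 genes of the HIF system, 20 further HIF targets, 19 further isoenzymes and 10 genes of pyruvate entry into the mitochondria and its control. In antral over preantral granulosa 11 of 19 tested HIF targets were higher and 4 lower (all genes 23.3% and 22.8%), led by the collagen-modifying Plod2 (2.52 ± 0.17, adjusted p = 5.6e-10) and P4ha2 (2.18 ± 0.25, adjusted p = 4.28e-07). There, 2 of 7 tested hypoxia response genes were higher and 2 lower, and of 7 HIF system genes 0 and 2. The further HIF targets gave 7 of 19 higher and 7 lower in S phase over preantral granulosa (all genes 28.5% and 28.2%). In G2 and mitosis they gave 7 and 5 (27.9% and 28.8%). In theca-like over stromal-like cells 3 of 20 were higher and 5 lower (20.9% and 22.2%). In granulosa-like over stromal-like cells 4 of 20 were higher and 8 lower (all genes 31.1% and 29.7%), with Adm, a vasodilator peptide, lower (-3.06 ± 0.28, adjusted p = 3.31e-13). Of 10 pyruvate entry genes 7 were higher and 1 lower in theca-like over stromal-like cells (all genes 20.9% and 22.2%), and 7 and 2 in late over early theca (all genes 22.6% and 22.8%). Pdk4 led the latter (2.78 ± 0.31, adjusted p = 4.57e-09). It is of the kinases that switch pyruvate dehydrogenase off, so no direction of pyruvate use is read from these counts. Of the same 10 genes 1 was higher and 4 lower in blood endothelial-like over stromal-like cells (all genes 23.1% and 24.4%). Of the HIF system, Epas1, the HIF subunit of endothelium, was higher in blood endothelial-like (4.26 ± 0.29, adjusted p = 5.53e-17) and pericyte-like cells (3.63 ± 0.28, adjusted p = 8.94e-15), and Hif3a was lower in granulosa-like cells (-3.59 ± 0.51, adjusted p = 2.3e-07). Of the further isoenzymes, the muscle mutase Pgam2 (8.08 ± 0.70, adjusted p = 7.28e-11) and the insulin-dependent glucose transporter Slc2a4 (4.55 ± 0.34, adjusted p = 3.44e-15) were higher in pericyte-like cells. The smooth muscle marker list stood at 5477 to 12115 CPM there and 1262 to 1798 CPM in stromal-like cells, and its part in these pericyte-like values was not tested. The transporter Slc16a7 was lower in granulosa-like cells (-3.03 ± 0.26, adjusted p = 2.15e-13).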

How the data were processed

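Whole mouse ovaries at 5 ages were profiled as single cells with the 10x 3′ v3.1 kit. The authors deposited, for each library, raw UMI counts per gene and cell barcode from Cell Ranger, version 3.1.0 for 2 to 4 wk and 6.0.1 for 5 and 6 wk per the file headers (3.1.0 for all, with Seurat 4.1.0, per the labels), on genome mm10. No barcode was left out here. Counts were clustered with Seurat 5.3.0 (integration across libraries, 2000 variable genes without the listed genes, 30 components, resolution 1), first over all cells and then within granulosa and within mesenchymal clusters. Doublets called by Scrublet (scanpy 1.11.5, expected rate 0.06) were kept. Names came from marker lists. The limits of the naming rule were set after clusters had been seen, and 6 versions of it were tried. The members, lists and comparisons were chosen with earlier results of these data known.

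Counts were summed per library and class (at least 20 cells) and tested with edgeR 4.0.16 (quasi-likelihood, TMM, filterByExpr, class and library as terms, two-sided, Benjamini-Hochberg over all genes tested, threshold 0.05). All classes of a clustering were in 1 fit and shared 1 estimate of the spread. With 1 library per age, that spread joins differences between ages and between mice, and the p-values do not measure the spread between mice alone. The classes of a library come from the same ovaries, so library was a term, and their deviations from the class means correlated at 0.249 to 0.728 in every library. A class share or sum carries counting error only in its interval (exact Poisson, conditional or binomial, 95%), and molecules of free RNA are included. Of 12 planned comparisons 5 were not run, since no cluster could be named secondary or cumulus, and 3 comparisons with preantral granulosa were added after seeing the data. Full values were given for up to 6 called genes per comparison with the same sign in every library (on the TMM scale) and the largest log2 fold change, for isoenzyme partners, for the 5 highest and 5 lowest age ratios in antral granulosa and theca-like cells, and for up to 3 genes of the other lists. Other genes were named after their values were seen. The scripts were tested on simulated data. Alternatives were DESeq2 1.42.0, RLE size factors, no filter on low counts, no library term, leaving out each library, leaving out doublets, a stricter cell filter, resolution 0.6, and the listed genes kept among the variable genes. Sequences were read from RefSeq promoter windows of GRCm38.p6, the assembly that mm10 names.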

Additional observations from a re-analysis of the deposited data

How the results depend on the processing

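The 182 called gene values of the list were refitted 2365 times under the alternatives. In 2181 refits the call held, in 184 it was lost and in 0 the direction turned, and 132 values were called in every refit. Without the replicate block (library as a term), the members lower were 1 of 2 in theca-like over stromal-like, 3 of 10 in remodeling over antral granulosa, 3 of 5 in late theca over early theca, 2 of 5 in S phase and 3 of 6 in G2 and mitosis over preantral granulosa, and the members higher 2 of 5 in remodeling over antral granulosa and 9 of 16 in antral over preantral granulosa. The block changed no other count of members by over 1.5 times. The members lower in theca-like over stromal-like cells were 4 with RLE size factors and 4 with no filter on low counts. Leaving out 1 library gave 2 to 4 lower there and 4 to 12 lower in remodeling over antral granulosa, where keeping the listed genes among the variable genes gave 3 higher.

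The median over members of the log2 ratio, in place of the summed CPM, turned the hypoxia response to -0.011 in granulosa-like over stromal-like and -0.066 in primary over primordial granulosa, transporters to -0.080 and bisphosphatase kinases to -0.14 in blood endothelial-like over stromal-like cells, and the pyruvate and lactate genes to -0.015 in primary over primordial, 0.18 in antral, 0.35 in S phase and 0.053 in G2 and mitosis over preantral granulosa. Summed CPM near 0 also turned: hypoxia response to -0.047 in G2 and mitosis over preantral granulosa with the listed genes kept and to -0.0033 in pericyte-like over stromal-like cells with doublets left out, and all members to 0.0082 in primary over primordial granulosa with a stricter cell filter (1000 genes or more, mitochondrial share below 10%). The isoenzyme shares of Ldha moved to a median of 76.1% in blood endothelial-like and 75.1% in pericyte-like cells with doublets left out.

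The ages moved most. At 6 over 2 wk the members higher were 1 among blood endothelial-like, 0 among stromal-like and 0 among theca-like cells, and the members lower 1, 7 and 1 in these classes and 4 in remodeling granulosa. At 5 over 3 wk the members higher were 1 in antral and 7 in remodeling granulosa, 1 among stromal-like and 5 among theca-like cells, and the members lower 0 in antral and 5 in theca-like cells. With doublets left out 1 was lower at 5 over 2 wk in blood endothelial-like cells. In remodeling granulosa 1 was lower with the listed genes kept, 3 at resolution 0.6 and 2 with the stricter cell filter, which gave 0 higher and 1 lower in theca-like cells. The cause was not tested.

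With 1 library per age, depth gives counting error only, and genes with few UMIs in a class (Egln3, Aldoc, Eno2, Pfkfb4 in vessels) have wide errors.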
